A study of Callithrix jacchus with 54 samples.

Results

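The S100 genes encode small calcium-binding proteins, and 8 of them were chosen by symbol from the expression table of a marmoset germ cell study: S100A4, S100A6, S100A10, S100A11, S100A13, S100A14, S100A16 and S100P. The table held 7 of these 8 among its 14812 genes, and S100A13 was not analysed here. The family was picked because S100A6 and S100A4 differed between 2 media for embryonic stem cells and S100P differed with BMP4, so those contrasts are given below as values with no test. The 7 genes carry the identifiers 100897037 (S100A4), 100388057 (S100A6), 100400962 (S100A10), 100411978 (S100A11), 100398545 (S100A14), 100389138 (S100A16) and 100388065 (S100P) in the table, and all 7 passed the filter on low values.

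S100 proteins carry paired EF-hand calcium-binding motifs and mostly work as dimers that, on binding calcium, open a surface for partner proteins. S100A10 is an exception that no longer binds calcium and sits in a complex with annexin A2 at the plasma membrane. S100A11 binds annexin A1, S100A4 binds non-muscle myosin and is common in motile mesenchymal cells and fibroblasts, S100A6 binds the calcyclin-binding protein, and S100P binds ezrin and is well known from the placenta. S100A14 and S100A16 are mostly described in epithelial cells.

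The cells were the common marmoset embryonic stem cell (cjESC) line CMES40 with fluorescent reporters for the germ cell genes BLIMP1 (tdTomato, BT) and NANOS3 (eGFP, NG). In all, 54 libraries of poly(A) RNA covered 27 conditions in 2 replicates each. The TG+ line, which carries rtTA, tetO-BLIMP1, SOX17-GR and DD-TFAP2C transgenes, was kept in DK20FA medium, and the line without transgenes (TG- line) was kept in PESFA medium, so medium and line cannot be told apart. Both were grown on mouse embryonic fibroblasts and sorted for the surface marker TRA-1-60. TG+ cells were then cultured for 12, 24, 48 or 96 h in BLSE, a mix of BMP4, LIF, SCF and EGF with a Rock inhibitor, without SOX17, with SOX17 induced (SOX17+BLSE), or with SOX17 but no BMP4 (SOX17+LSE). SOX17-GR was induced with dexamethasone, a glucocorticoid, so SOX17 and dexamethasone cannot be told apart in comparisons with BLSE. TG- cells were pre-treated for 24 h with IM12, a WNT agonist, and activin A and sorted for TRA-1-60, then cultured for the same times in BLSE with the WNT inhibitor IWR1 (BLSE+IWR1), alone or with BMS493, an inverse agonist of retinoic acid receptors (BLSE+IWR1+BMS). Cells at 12 to 48 h, and BLSE cells at 96 h, were not sorted. The other cells at 96 h, primordial germ cell-like cells (PGCLCs) at day 6, and cells from day 20, 40 and 70 of culture with mouse gonadal somatic cells (xrOvary) were sorted for BT. The day 6 cells came from the BLSE+IWR1 culture. The paper describes xrOvaries made from such day 6 cells, with retinoic acid added to the medium at the start. The transgenic and reporter cells were derived from 1 parental line.

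Expression is given as TPM, a transcript abundance that the authors normalized for gene length and library total, so levels of different genes can be compared. The depth of the libraries is unknown, and between 10146 and 12688 of the 14812 genes were above 0 in a library. The correlation of log2(TPM + 1) between the replicates of a condition ranged from 0.977 to 0.994, and no pair of libraries was identical. Markers followed the labels in part. POU5F1, a core pluripotency factor, was at 3082 and 2868 TPM in DK20FA cjESCs. The summed TPM of 6 PGCLC markers was 3070 and 3320 at day 6 against 839 and 674 in DK20FA cjESCs. The sum of 6 cjESC markers did not set cjESCs apart, at 4490 and 3960 in DK20FA and 7610 and 7760 at day 6. The sum of 5 later germ cell markers was 22.8 and 17.7 at day 20 and 127 and 132 at day 70, with DDX4 at 0 in both day 20 libraries. In BLSE at 96 h, POU5F1 was at 103 and 125 TPM. These are bulk samples, so fewer cells that express a gene and less RNA per cell cannot be told apart. The labels do not name separate cultures for the replicates, although the study calls them biological duplicates, and the p-values measure only the spread between these libraries.

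A difference is written as the log2 difference of log2(TPM + 1) between 2 conditions with its standard error (SE), from 1 limma model over all 54 libraries and the 11197 genes that reached a log2 value of 1.5 in at least 1 library. This scale understates the change of weakly expressed genes. A gene rose or fell where the Benjamini-Hochberg adjusted p was below 0.01. For 2 against 2 libraries the lowest p of an exact permutation test is 0.33, so the calls rest on the spread shared over all conditions. Groups of 2 libraries that do not overlap are therefore weak support on their own. The share of all genes without overlap is not given here. Comparisons below that use the same libraries, such as those with BLSE+IWR1, share their errors.

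S100A11 was the dominant S100 transcript. Its TPM ranged from 441 to 2521 with a median of 1440, and it made up 35.3% to 85.7% of the summed TPM of the 7 genes in a library (median 72.2%). Within the 54 libraries its rank by TPM lay between 44 and 258 among the 14812 genes. S100A10 followed with a median of 375 TPM and a range of 61.7 to 906 TPM, and S100A14 with a median of 126 TPM and a range of 5.63 to 314 TPM. These 3 genes were above 0 in all 54 libraries. The medians of S100A4, S100A16 and S100A6 were 7.99, 5.4 and 4.79 TPM, but the highest values of S100A4 and S100A6 were 247 and 1846 TPM. S100P was listed at 0 in 30 of the 54 libraries and reached 142 TPM.

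**Figure D1:**
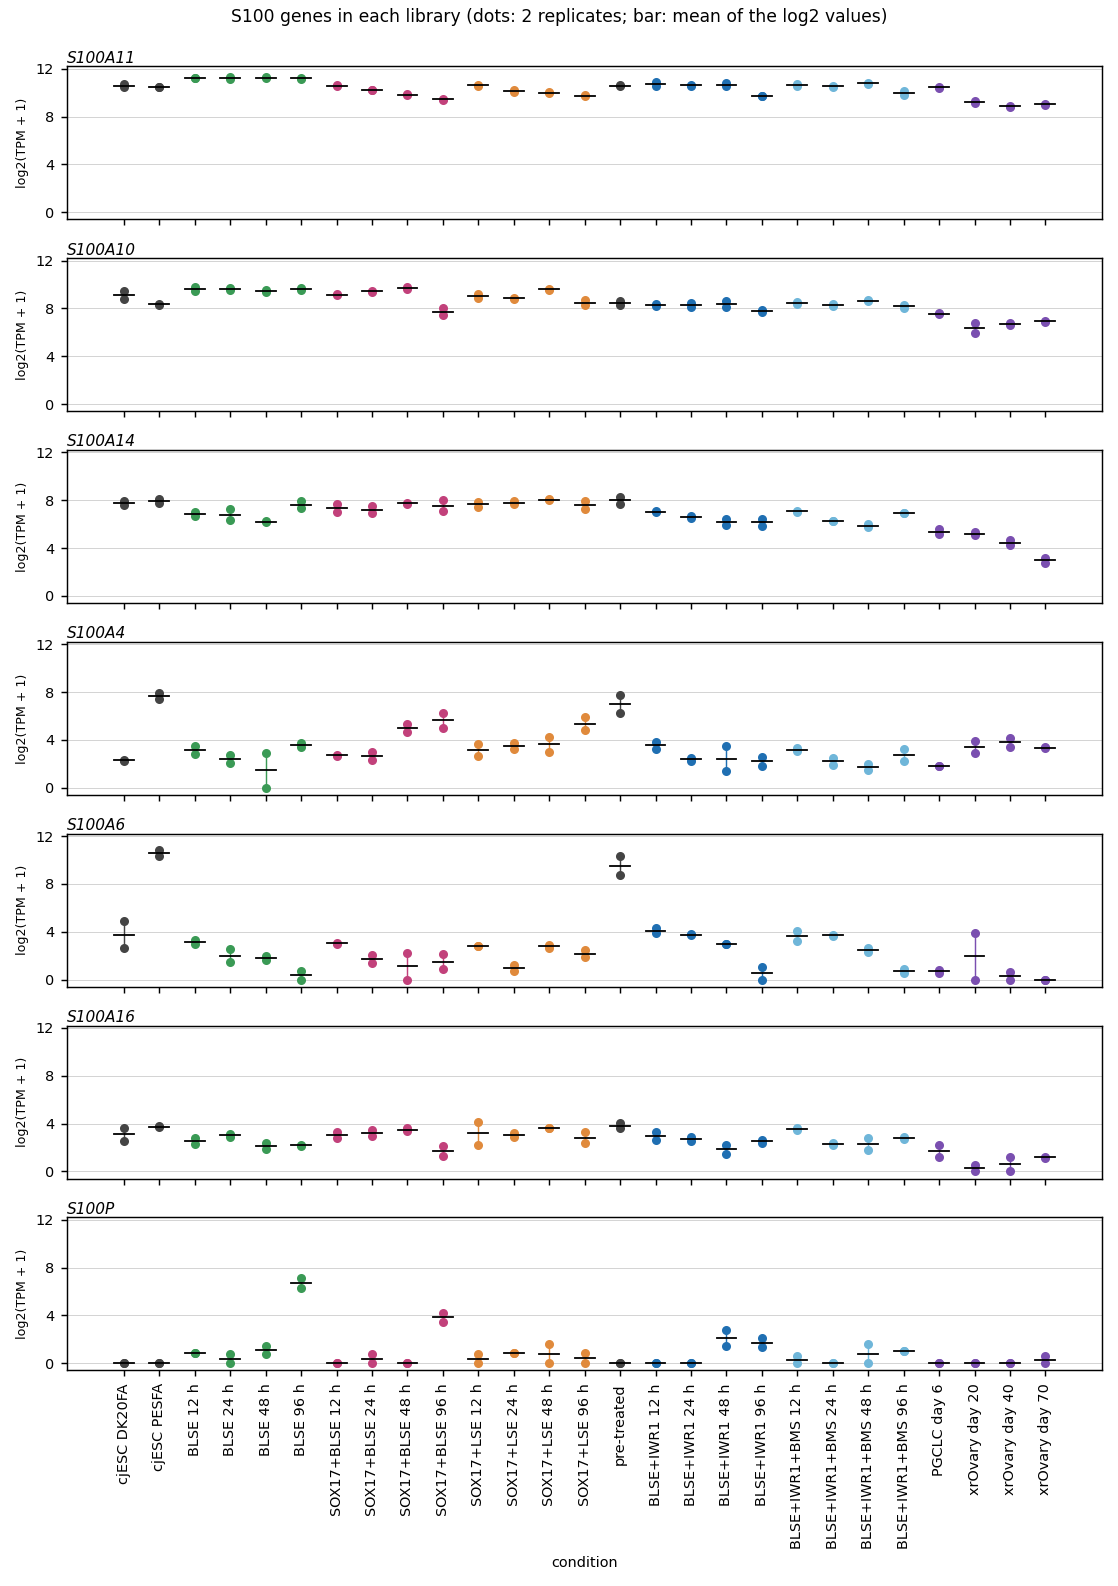
Log2(TPM + 1) of the 7 S100 genes (panels) in the 27 conditions (x axis), with 1 dot per library and a bar at the mean of the 2 replicates. S100A11 lay above 8 in every condition, S100A6 and S100A4 peaked in PESFA cjESCs and pre-treated cells, and S100P peaked in BLSE at 96 h.

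S100A6 and S100A4 had their highest levels in PESFA cjESCs, the contrast for which they were chosen. S100A6 was at 1309 and 1846 TPM in PESFA and at 5.22 and 28.2 TPM in DK20FA, a log2 difference of 6.85. S100A4 was at 175 and 247 TPM in PESFA and at 3.7 and 4.09 TPM in DK20FA, a log2 difference of 5.42. In PESFA, S100A6 thus stood at the level of S100A11, which was at 1434 and 1447 TPM there and at 1405 and 1655 TPM in DK20FA. Among the other members, S100A10 was at 329 and 318 TPM in PESFA and 440 and 698 TPM in DK20FA, S100A14 at 275 and 222 TPM against 195 and 245 TPM, S100A16 at 12.1 and 12.7 TPM against 11.6 and 4.99 TPM, and S100P was listed at 0 in all 4 libraries. S100A6 and S100A4 were the 2 members over 4-fold apart, beside 2.4% of all genes in this contrast. Both were chosen on this contrast, so that count is no result about the family. The S100A6 difference was 5.73 or 7.97 without either DK20FA replicate.

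Markers of another cell type moved in the same libraries. The 12 fibroblast markers listed for feeder cells were all in the table, and none was at 0 in both libraries of DK20FA, PESFA or pre-treated cells. Their summed TPM was 3350 and 2020 in PESFA, 2720 and 5180 in pre-treated cells, and 297 and 342 in DK20FA. The paper describes pre-treatment on wells coated with fibronectin, after growth of the cjESCs on mouse feeder cells. COL3A1, a fibrillar collagen, was at 587 and 310 TPM in PESFA and at 3.71 and 13.6 TPM in DK20FA. The part of such cells in the levels of S100A6 and S100A4 was not tested, and TPM keep no record of species, so transcripts of the mouse feeder cells and of marmoset cells cannot be told apart in these values. The marker sum was also 2100 and 1430 TPM in BLSE at 96 h, where S100A6 was at 0.65 and 0 TPM and S100A4 at 9.77 and 12.4 TPM.

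The pre-treated cells kept high levels of both genes, but the replicates lay far apart. S100A6 was at 436 and 1262 TPM, and S100A4 at 75.8 and 219 TPM. In both genes replicate 2 was the higher library, by 2.89 and 2.9 times, and it was also the library with the higher fibroblast marker sum. In PESFA the order was crossed, with more S100A6 and S100A4 in replicate 2 and the higher marker sum in replicate 1. The other 5 genes were tested against PESFA cjESCs, and 0 of 5 passed in limma, with 0 at an unadjusted p below 0.05, beside 0.304% of all genes. S100P was at 0 in these 4 libraries, and the log2 differences of the remaining 4 lay between 0.02 and 0.11.

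Both genes fell as soon as pre-treated cells entered BLSE+IWR1. S100A6 was at 18.6 and 13.7 TPM after 12 h, 13 and 11.9 TPM after 24 h, 6.77 and 6.78 TPM after 48 h and 1.1 and 0 TPM after 96 h. The log2 differences from pre-treated cells were -5.45, -5.79, -6.58 and -9.00 (SE 0.72 each; adjusted p from 6.74e-07 at 12 h to 8.17e-13 at 96 h). All values in BLSE+IWR1 were thus below both pre-treated libraries by more than an order of magnitude. S100A4 was at 8.57 and 13.2 TPM, 3.78 and 4.71 TPM, 10.1 and 1.61 TPM, and 5.04 and 2.55 TPM at the same times, with log2 differences of -3.48, -4.64, -4.60 and -4.81 (SE 0.63; adjusted p of 0.000135, 7.56e-07, 4.76e-07 and 6.36e-08). The first of these was -2.72 and no longer passed (adjusted p = 0.0258) without pre-treated replicate 2. It also did not pass with a pseudocount of 0.1. The fibroblast marker sum was 280 and 179 TPM at 12 h of BLSE+IWR1 and between 130 and 199 TPM later, and its part in the fall was not tested.

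**Figure D2:**
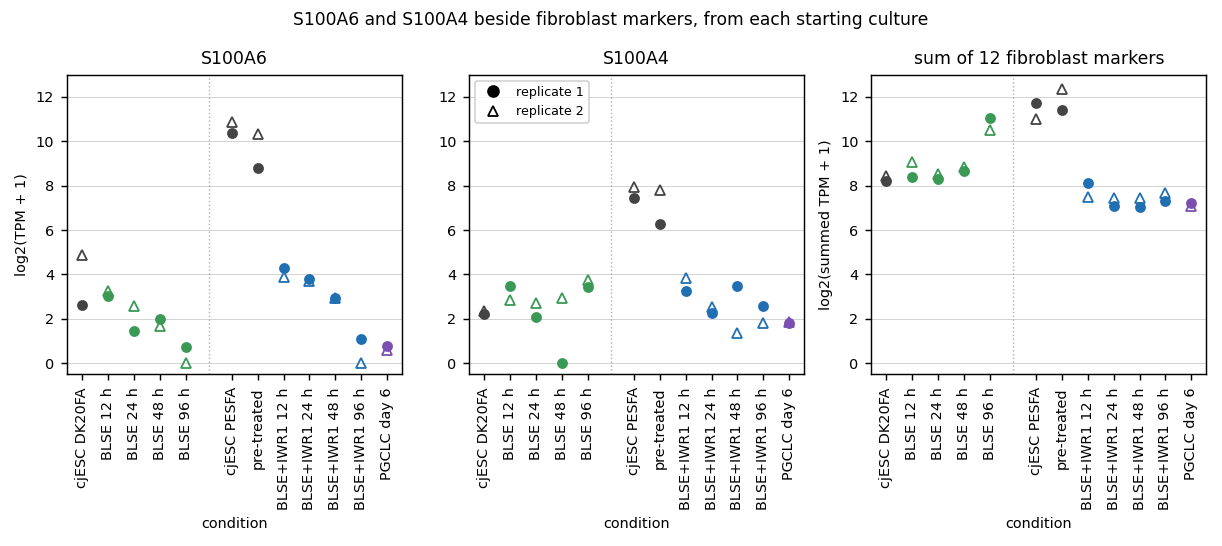
Log2(TPM + 1) of S100A6 and S100A4, and log2 of the summed TPM of 12 fibroblast markers plus 1, from DK20FA cjESCs through BLSE (left of the dotted line) and from PESFA cjESCs through pre-treatment and BLSE+IWR1 to PGCLC day 6 (right); circles are replicate 1 and triangles replicate 2. S100A6, S100A4 and the markers were high together in PESFA and pre-treated cells, and in BLSE at 96 h the markers were high while S100A6 was at or below 0.65 TPM.

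The remaining members took different paths in BLSE+IWR1. Against pre-treated cells, 2, 3, 5 and 6 of the 7 genes, S100A6 and S100A4 included, passed at 12, 24, 48 and 96 h, beside 6.79%, 9.46%, 19.2% and 40.1% of all genes. The 2 at 12 h were S100A6 and S100A4, which also passed at each later time. The median log2 difference of the 7 was -0.84, -1.09, -1.81 and -1.30, beside 0.018, 0.074, 0.045 and 0.142 over all genes. S100A6 and S100A4 were chosen for high levels in PESFA cjESCs, from which the pre-treated cells came. The counts and medians with them are therefore no result about the family. S100A14 went from 314 and 201 TPM to 103 and 88.3 TPM at 24 h, 85.2 and 58.7 TPM at 48 h and 57.5 and 85.2 TPM at 96 h, with log2 differences of -1.39, -1.81 and -1.83 (SE 0.29; adjusted p of 0.000585, 6.9e-06 and 2.1e-06). Its ranges did not overlap at any of these times, but the value at 24 h did not pass without pre-treated replicate 1 (-1.07, adjusted p = 0.0341) or without BLSE+IWR1 24 h replicate 2 (-1.28, adjusted p = 0.015). S100A16 went from 15.2 and 11.1 TPM to 3.60 and 1.78 TPM at 48 h, a log2 difference of -1.97 ± 0.45 (SE, adjusted p = 0.000933). It did not pass without pre-treated replicate 1 (-1.76, adjusted p = 0.0188), without BLSE+IWR1 48 h replicate 2 (-1.61, adjusted p = 0.0269) or with a pseudocount of 0.1.

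S100A11 held its level for 48 h and then fell. It was at 1488 and 1583 TPM in pre-treated cells and between 1485 and 1861 TPM at 12 to 48 h, and it was at 859 and 850 TPM at 96 h, a log2 difference of -0.84 ± 0.10 (SE, adjusted p = 7.14e-09). S100A10 was at 390 and 310 TPM in pre-treated cells and at 231 and 213 TPM at 96 h, a log2 difference of -0.65 ± 0.20 (SE, adjusted p = 0.00621). The 2 groups did not overlap, but the call was lost without pre-treated replicate 1 (-0.49, adjusted p = 0.101), without either 96 h replicate (-0.71 and -0.59, adjusted p of 0.018 and 0.0508), without the filter on low values and without the intensity trend. Cells at 96 h were sorted for BT and those at 12 to 48 h were not, so time and sorting cannot be told apart in the step to 96 h.

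S100A11 separated the BLSE culture from every other course. In DK20FA cjESCs it was at 1405 and 1655 TPM, and in BLSE it was at 2324 and 2392 TPM at 12 h, 2200 and 2521 TPM at 24 h, 2348 and 2469 TPM at 48 h and 2454 and 2246 TPM at 96 h. All 8 BLSE libraries lay above both cjESC libraries, with log2 differences of 0.63, 0.63, 0.66 and 0.62 (SE 0.10; adjusted p between 2.27e-06 and 2.43e-05). S100A10 was at 705 and 889 TPM at 12 h and at 828 and 748 TPM at 96 h, against 440 and 698 TPM, and its log2 difference of 0.50 at 96 h did not pass (adjusted p = 0.0408). Without cjESC DK20FA replicate 2 that difference was 0.84 and passed (adjusted p = 0.00355). In these 4 comparisons 1, 1, 2 and 2 of the 5 genes tested passed, beside 7.41%, 11.7%, 19.8% and 29.5% of all genes. S100A6 was at 7.05 and 8.67 TPM at 12 h and reached 0.65 and 0 TPM at 96 h, and S100A4 lay between 0 and 12.4 TPM over the 4 times; neither was tested here, since the cjESC libraries were those of their choice.

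With SOX17 induced, S100A11 took the opposite course. It was at 1487 and 1573 TPM at 12 h, 1208 and 1162 TPM at 24 h, 897 and 927 TPM at 48 h and 715 and 677 TPM at 96 h. Each value was below both BLSE libraries of its time, and the log2 difference from BLSE went from -0.62 at 12 h through -0.99 and -1.40 to -1.75 at 96 h (SE 0.10; adjusted p of 6.91e-05, 4.8e-09, 2.41e-13 and 3.38e-17). The change from 12 to 48 h, which compares unsorted cells, differed between SOX17+BLSE and BLSE by -0.78 ± 0.14 (SE, adjusted p = 0.000503), beside 2.46% of all genes called in that test. Under median-ratio scaling it was -0.82 and did not pass (adjusted p = 0.012). In SOX17+LSE, S100A11 was at 1520 and 1626 TPM, 1158 and 1086 TPM, 1002 and 1055 TPM, and 835 and 880 TPM at the 4 times.

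S100A4 rose with SOX17 at the later times. In SOX17+BLSE it was at 5.27 and 5.84 TPM at 12 h, 3.92 and 6.74 TPM at 24 h, 24.3 and 39.0 TPM at 48 h and 31.7 and 76.2 TPM at 96 h, and in BLSE it was at 10.1 and 6.12, 3.28 and 5.63, 0 and 6.63, and 9.77 and 12.4 TPM. The groups did not overlap at 48 and 96 h, with log2 differences of 3.52 ± 0.63 (SE, adjusted p = 4.51e-05) and 2.07 ± 0.63 (adjusted p = 0.00559). Neither call held without each library. At 48 h it was lost without BLSE 48 h replicate 1, the library listed at 0, where the difference was 2.06 (adjusted p = 0.0237). At 96 h it was lost without either BLSE library (1.91 and 2.22, adjusted p of 0.0431 and 0.0185), without SOX17+BLSE replicate 2 (1.45, adjusted p = 0.116), with a pseudocount of 0.1, without the filter and under both other scalings. SOX17+LSE cells had 6.89 and 18.1 TPM at 48 h and 26.7 and 59.0 TPM at 96 h. With SOX17+BLSE the fibroblast marker sum was 367 and 360 TPM at 48 h and 139 and 137 TPM at 96 h, below the 404 and 453 TPM and the 2100 and 1430 TPM of BLSE.

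Of the 6 genes tested between SOX17+BLSE and BLSE, 1, 1, 3 and 3 passed at the 4 times, beside 2.4%, 7.56%, 16.7% and 45.4% of all genes. S100A14 passed at 48 h, where it was at 207 and 216 TPM with SOX17 and at 74.9 and 69.8 TPM without, a log2 difference of 1.53 ± 0.29 (SE, adjusted p = 9.64e-05). It had fallen in BLSE by that time, from 195 and 245 TPM in cjESCs (-1.58 ± 0.29, adjusted p = 4.83e-05). S100A10 reached its highest level of all conditions, 781 and 906 TPM, at 48 h of SOX17+BLSE, and it was at 172 and 260 TPM in the sorted cells at 96 h. There it was below the 828 and 748 TPM of BLSE, with a log2 difference of -1.89 ± 0.20 (SE, adjusted p = 3.09e-10). At 96 h the SOX17+BLSE cells were sorted and the BLSE cells were not, so SOX17 and sorting cannot be told apart. The median of all genes stood at 0.243 in this contrast, and relative to it the difference of S100A11 is larger in size and that of S100A4 smaller.

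S100P appeared late and mainly in BLSE. It was listed at 0 in both cjESC conditions and in pre-treated cells, and in BLSE it was at 0.85 and 0.80 TPM at 12 h, 0 and 0.74 TPM at 24 h, 0.71 and 1.75 TPM at 48 h and 76.6 and 142 TPM at 96 h. At 96 h it was higher than in cjESCs (adjusted p = 6.06e-15), and no fold is given against libraries at 0. In SOX17+BLSE it was at 10.1 and 17.5 TPM at 96 h and at most 0.72 TPM before, and in SOX17+LSE, without BMP4, it was at 0 and 0.80 TPM at 96 h. That is the contrast for which S100P was chosen, with a log2 difference of 3.42, or 5.48 with a pseudocount of 0.1. In the same contrast S100A10 was at 172 and 260 TPM with BMP4 and at 315 and 408 TPM without (-0.76, and -0.46 or -1.05 without SOX17+BLSE replicate 1 or 2). Over the 4 times, S100P at 96 h was the only member value over 4-fold, beside 0.0982%, 0.25%, 1.14% and 0.893% of all genes at 12, 24, 48 and 96 h. Since S100P was chosen on this contrast, that count is no result about the family.

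BLSE+IWR1 cells also contain BMP4 in their medium, and S100P stayed low in them. It was at 0 at 12 and 24 h, at 1.76 and 5.95 TPM at 48 h and at 3.33 and 1.57 TPM at 96 h. Both later times were higher than the pre-treated libraries at 0 (adjusted p of 0.000342 and 0.00138), but the call at 48 h was lost without BLSE+IWR1 48 h replicate 2 (adjusted p = 0.0326) and the call at 96 h without either pre-treated library (adjusted p of 0.0107 and 0.0118) or without BLSE+IWR1 96 h replicate 1 (adjusted p = 0.04). At 96 h S100P was lower than in BLSE by a log2 difference of -4.98 ± 0.45 (SE, adjusted p = 7.53e-12). These BLSE+IWR1 cells were sorted and the BLSE cells were not, so culture and sorting cannot be told apart. In PGCLCs at day 6 and in xrOvaries at day 20 and 40 S100P was listed at 0, and at day 70 it was at 0.55 and 0 TPM.

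**Figure D3:**
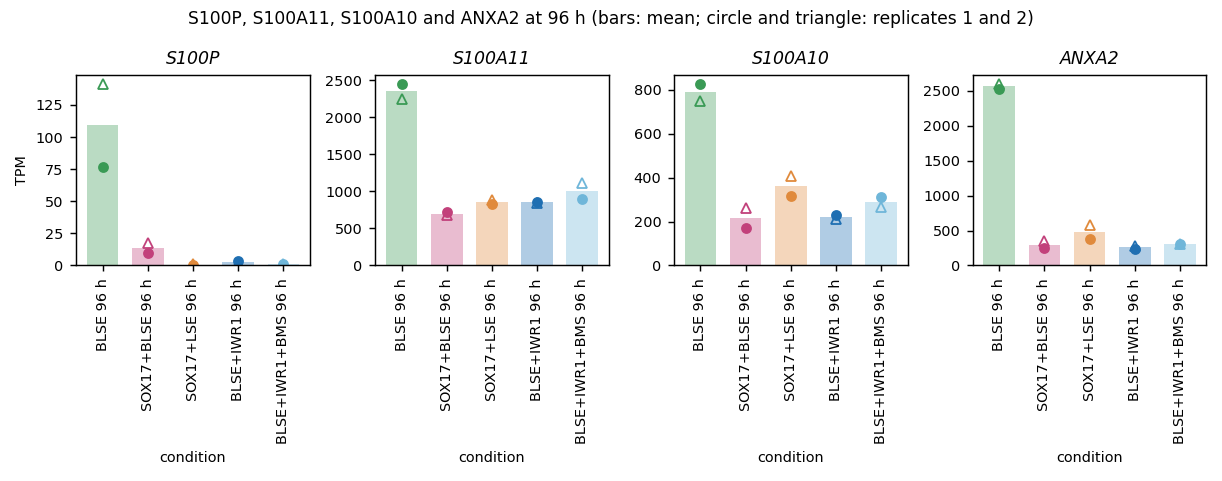
TPM of S100P, S100A11, S100A10 and the annexin gene ANXA2 in the 5 conditions at 96 h, each panel with its own axis from 0; bars are means, circles replicate 1 and triangles replicate 2. Both BLSE libraries, the unsorted ones, lay above all 8 sorted libraries for each of these genes. This did not hold for every member. S100A4, not shown, was lower in BLSE than in SOX17+BLSE, and S100A14 overlapped between these 2 conditions.

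The markers of other cells differed strongly between these conditions at 96 h. The summed TPM of 7 amnion-like markers, of 8 listed, was 3050 and 2990 in BLSE, 484 and 593 in SOX17+BLSE, 455 and 712 in SOX17+LSE and 297 and 417 in BLSE+IWR1. The sum of 6 mesoderm or mesenchyme markers was 3320 and 3070 in BLSE and 152 and 175 in SOX17+BLSE. These lists were not used to choose S100P, and their part in its level was not tested. The amnion-like sum was already 3290 and 3060 at 48 h of BLSE, where S100P was at 0.71 and 1.75 TPM.

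The genes with the pattern most like S100P over the 27 condition means were IVL (involucrin, a protein of the cornified envelope), the retroviral envelope genes ERVV-2 and ERVFRD-1, GAST (gastrin) and KRT16 (a keratin), with Pearson's r of 0.955, 0.944, 0.941, 0.928 and 0.911. All 5 had their highest level in BLSE at 96 h, with 8.70 and 15.3 TPM for IVL, 46.2 and 46.7 TPM for ERVV-2, 6.14 and 9.54 TPM for ERVFRD-1, 169 and 231 TPM for GAST and 3.77 and 5.68 TPM for KRT16. For S100A6 the most similar genes were MMP19, CD5L, PDE1B, ITGBL1 and ACTG2, a smooth muscle actin, with r from 0.917 to 0.928. ACTG2 was at 103 and 175 TPM in PESFA and at 16 and 12.8 TPM in DK20FA. S100A4 had lower values, with r of 0.84 for CSNK1A1L, 0.823 for PABPC3 and 0.78 for PCDH19. The condition means share libraries and their composition, and these r are descriptions over 27 points. Among the members themselves the highest r were 0.80 for S100A14 with S100A16 and 0.71 for S100A10 with both S100A11 and S100A16, and S100A6 with S100A4 gave 0.59.

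The order of genes along the chromosome was read from RefSeq's marmoset assembly calJac240_pri, which is not the build of the table. S100A6, S100A5 and S100A4 follow each other without another protein-coding gene between them, S100A14 lies beside S100A16, and S100P has neighbours outside the family. S100A5, between both PESFA-high genes, was at 3.10 and 2.13 TPM in PESFA and at 0 and 0.83 TPM in DK20FA.

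BLSE+IWR1 and BLSE were compared at equal times, 2 cultures that differ in IWR1, pre-treatment, medium and line. At 96 h the BLSE+IWR1 cells were also sorted and the BLSE cells were not, so culture and sorting cannot be told apart there. Over the 4 times, 2, 2, 2 and 4 of the 7 genes passed, beside 13.8%, 14.6%, 21.2% and 44.1% of all genes. These members were lower in BLSE+IWR1, as were 7.92%, 6.51%, 10% and 17.0% of all genes. S100A10 was at 324 and 291 TPM against 705 and 889 TPM at 12 h, and its log2 differences were -1.36, -1.34, -1.07 and -1.83 at the 4 times (SE 0.20; adjusted p of 2.16e-06, 2.65e-06, 5.85e-05 and 7.47e-10). S100A11 was lower by 0.48, 0.59, 0.57 and 1.46 on the log2 scale (SE 0.10; adjusted p of 0.000356, 2.37e-05, 2.81e-05 and 5.98e-15). For both genes the libraries of the 2 cultures did not overlap at any time. The S100A11 difference at 12 h did not pass without BLSE+IWR1 12 h replicate 1 (-0.34, adjusted p = 0.0375) or under median-ratio scaling (-0.48, adjusted p = 0.013). S100A14 was lower at 96 h, at 57.5 and 85.2 TPM against 159 and 241 TPM (-1.47 ± 0.29, adjusted p = 5.05e-05). S100A4 had at 48 h 10.1 and 1.61 TPM against 0 and 6.63 TPM, and its difference passed only without BLSE 48 h replicate 2 (2.43, adjusted p = 0.00659). None of the 7 differed between the 2 cultures in its change from 12 to 48 h in limma, with 1 at an unadjusted p below 0.05, beside 1.04% of all genes called.

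None of the 7 genes passed with BMS493 at any time in limma. At 12, 24, 48 and 96 h, 0 of 7 passed, with 0, 0, 1 and 2 at an unadjusted p below 0.05, beside 0%, 0.0893%, 4.83% and 0.732% of all genes. S100P was at 0 and 2.06 TPM with BMS493 and at 1.76 and 5.95 TPM without at 48 h, a log2 difference of -1.32 ± 0.45 (SE, adjusted p = 0.048). Without BLSE+IWR1+BMS 48 h replicate 2 this difference was -2.13 and passed (adjusted p = 0.00685). S100A14 was at 122 and 121 TPM with BMS493 and at 57.5 and 85.2 TPM without at 96 h, and it did not pass (0.79 ± 0.29, adjusted p = 0.145).

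**Figure D4:**
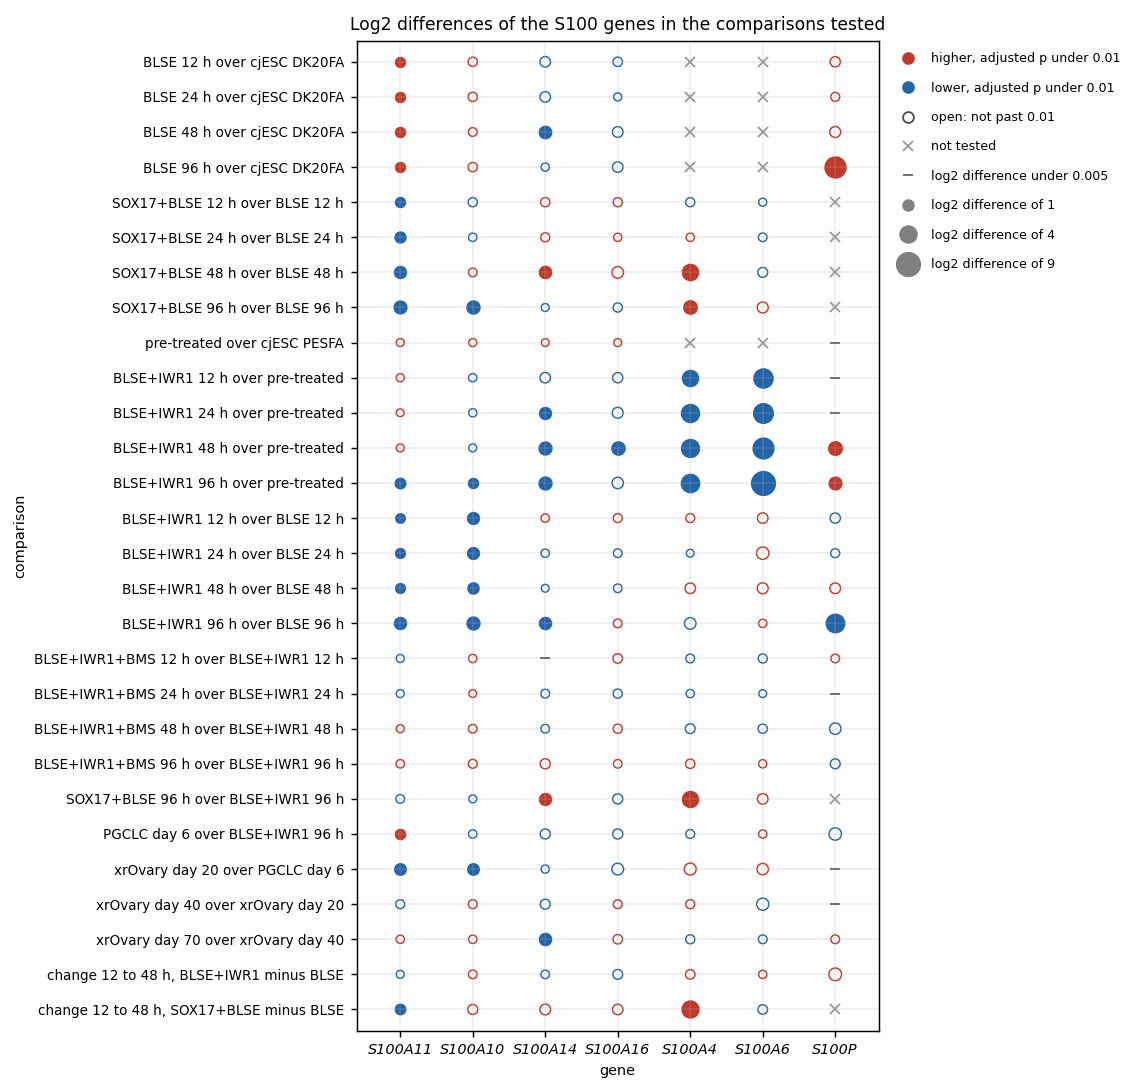
Log2 differences of the 7 S100 genes (x axis) in the comparisons tested (y axis), red for higher and blue for lower in the first-named condition, with the area growing with the size of the difference; filled circles passed an adjusted p of 0.01, open circles did not, crosses mark genes not tested because they were chosen on those libraries, and dashes mark differences near 0. For S100P against libraries at 0 the area depends on the pseudocount. S100A11 passed in all 4 comparisons of BLSE with cjESCs and all 4 of SOX17+BLSE with BLSE, and no gene passed in the 4 comparisons with BMS493.

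The 2 sorted germ cell precursors at 96 h, SOX17+BLSE from the TG+ line and BLSE+IWR1 from the TG- line, differed in 2 of the 6 genes tested, beside 6.08% of all genes. S100A4 was at 31.7 and 76.2 TPM against 5.04 and 2.55 TPM, a log2 difference of 3.44 ± 0.63 (SE, adjusted p = 0.000211). S100A14 was at 135 and 259 TPM against 57.5 and 85.2 TPM, a difference of 1.40 ± 0.29 (adjusted p = 0.000862). No library of one group reached the other group in either gene. Without SOX17+BLSE replicate 2 neither passed (2.82 with adjusted p = 0.0211 for S100A4, and 0.94 with adjusted p = 0.0954 for S100A14). S100A4 was also lost without BLSE+IWR1 96 h replicate 2 (3.06, adjusted p = 0.0123) and S100A14 without replicate 1 of that condition (1.12, adjusted p = 0.0371). S100P, not tested here, was at 10.1 and 17.5 TPM against 3.33 and 1.57 TPM.

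The family sum, most of it S100A11, rose from 96 h to day 6 and was lower in the xrOvary than at either time. The median log2 difference of the 7 genes from 96 h to day 6 was -0.365, beside -0.029 over all genes. Only S100A11 passed in that step. The summed TPM of the 7 genes was 1162 and 1156 in BLSE+IWR1 at 96 h, 1667 and 1578 at day 6, 659 and 817 at day 20, 568 and 636 at day 40, and 681 and 639 at day 70. S100A11 rose from 859 and 850 TPM to 1429 and 1346 TPM at day 6 (0.70 ± 0.10, adjusted p = 2.1e-05) and fell to 558 and 643 TPM at day 20 (-1.21 ± 0.10, adjusted p = 4.63e-12). S100A10 went from 187 and 190 TPM at day 6 to 61.7 and 106 TPM at day 20 (-1.21 ± 0.20, adjusted p = 9.24e-06). S100A11 still made up between 75.9% and 84.6% of the family sum in the 6 xrOvary libraries.

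S100A14 was the member that fell in the last step. It was at 46.2 and 35 TPM at day 6, 32.7 and 39.6 TPM at day 20, 17.7 and 25.1 TPM at day 40 and 8.22 and 5.63 TPM at day 70, and the step from day 40 to day 70 was -1.5 ± 0.29 (SE, adjusted p = 0.000676). That step did not pass without day 40 replicate 2 (-1.25, adjusted p = 0.039) or without day 70 replicate 2 (-1.26, adjusted p = 0.0404). Over the 4 steps 1, 2, 0 and 1 of the 7 genes passed, beside 2.75%, 20.4%, 4.6% and 2.73% of all genes, and in the step from day 20 to day 40, 3 genes had an unadjusted p below 0.05. Without day 20 replicate 1, 7 results passed over the 4 steps in place of 4. S100A6 was at 0 and 14.3 TPM at day 20, and neither step there passed (1.28 and -1.65, adjusted p of 0.194 and 0.163 in limma). Its log2 difference from day 6 to day 20 was 3.25 without day 20 replicate 1 and -0.69 without replicate 2. From day 20 to day 40 it was -3.62 and 0.32 without the same libraries. S100A4 was at 2.56 and 2.63 TPM at day 6 and between 6.29 and 17.2 TPM in the 6 xrOvary libraries, and no step of it passed. The sum of 8 gonadal somatic markers was at most 7.64 TPM in these libraries, and that of the 12 fibroblast markers at most 70.9 TPM.

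The annexins, partners of S100A10 and S100A11, were followed as a list of 13 genes chosen with earlier results known, of which 10 passed the filter. Between BLSE+IWR1 and BLSE, 6, 6, 5 and 6 of the 10 were lower at the 4 times and 1, 1, 1 and 0 higher, where 7.92%, 6.51%, 10% and 17.0% of all genes were lower and 13.8%, 14.6%, 21.2% and 44.1% were called either way, with median log2 differences of -0.77, -1.06, -0.82 and -1.28, beside 0.01, 0.081, 0.027 and 0.204 over all genes. ANXA2, which encodes the partner of S100A10, was at 512 and 414 TPM against 1313 and 1709 TPM at 12 h and at 242 and 284 TPM against 2521 and 2603 TPM at 96 h. Its log2 differences were -1.70, -2.10, -2.34 and -3.28 (SE 0.16; adjusted p from 3.33e-10 to 4.7e-19), and those of S100A10 in the same comparisons are given above. With SOX17, ANXA2 was lower than in BLSE by 1.26 at 48 h and by 3.13 at 96 h on the log2 scale (adjusted p of 1.11e-07 and 1.42e-18), while S100A10 did not pass at 48 h. In all comparisons with BLSE at 96 h, the BLSE cells were unsorted and the others sorted. ANXA1, which encodes the partner of S100A11, was at 30.0 and 44.2 TPM in BLSE+IWR1 at 24 h and at 201 and 265 TPM in BLSE, and its differences at 24, 48 and 96 h were -2.63, -3.58 and -4.69 (adjusted p of 2.99e-09, 1.79e-12 and 7.43e-17). In the xrOvary at day 20 ANXA2 was at 327 and 320 TPM, above the 174 and 165 TPM of day 6 (0.93 ± 0.16, adjusted p = 1.71e-05), whereas S100A10 fell in that step.

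Another 12 S100 genes were listed, of which 7 passed the filter. S100G encodes a vitamin D-dependent calcium buffer and was the most strongly expressed of the 7 in PESFA cjESCs. It was at 177 and 225 TPM in PESFA, 220 and 264 TPM in pre-treated cells, 129 and 117 TPM at 12 h of BLSE+IWR1 and 28.7 and 43.3 TPM at 48 h, and it was listed at 0 at 96 h and at day 6. In DK20FA it was at 82.7 and 34.3 TPM, and in BLSE it was at 15.9 and 22.5 TPM at 12 h and listed at 0 at 96 h. The differences between BLSE+IWR1 and BLSE were 2.64, 2.39 and 2.71 at 12, 24 and 48 h (SE 0.39; adjusted p of 3.15e-06, 1.37e-05 and 1.26e-06). With BMS493, 2 of these 7 genes were lower at 48 h and 0 at the other times. Of all genes, 0%, 0.0893%, 4.83% and 0.732% were called either way at 12, 24, 48 and 96 h. S100G was at 14.7 and 4.2 TPM at 48 h with BMS493, below both libraries without it, and S100A5 was listed at 0 with it and at 1.93 and 3.26 TPM without. S100A1, a regulator of calcium handling in muscle that was named after its values were seen, was at 32.8 and 43.9 TPM in SOX17+BLSE and at 10.8 and 17.4 TPM in SOX17+LSE at 96 h. In that contrast 1 of the 7 genes was called higher and 1 lower, and the share of all genes called is not reported here. The median log2 difference of the 7 was 0, beside -0.015 over all genes. S100B was at 6.84 and 15.0 TPM at day 20 and at 0.53 and 0.48 TPM at day 6.

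Of 19 listed S100 targets and receptors, 10 passed the filter. EZR, which encodes ezrin, the partner of S100P, was at 708 and 805 TPM in BLSE at 96 h, and SOX17+BLSE cells of that time had 648 and 736 TPM. CACYBP, which encodes the partner of S100A6, was at 366 and 294 TPM in PESFA and at 474 and 401 TPM in DK20FA. AHNAK, which encodes a large scaffold protein bound by the S100A10 and annexin A2 complex, was at 205 and 201 TPM in BLSE at 96 h, while SOX17+BLSE cells had 36.8 and 62.4 TPM and BLSE+IWR1 cells 21.6 and 30.5 TPM. Between SOX17+BLSE and BLSE at 96 h, 2 of the 10 were higher and 3 lower with a median log2 difference of -0.11, and between BLSE+IWR1 and BLSE 2 were higher and 4 lower with a median of -0.24, beside 0.243 and 0.204 over all genes. Of all genes, 45.4% and 44.1% were called in these comparisons, near the share of the targets. In both, the BLSE cells were unsorted and the others sorted.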

How the data were processed

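Poly(A) RNA of 54 libraries was sequenced as single-end directional reads. STAR was used by the authors for alignment to marmoset cj1700_1.1, alignments of mapping quality 1 or less were dropped, and RSEM gave abundances. The deposited values are TPM, set by the authors for the genes common to marmosets and humans. TPM keep no read totals, so depth is unknown, no interval based on depth was computed, and the summed TPM of the shared genes (790300 to 839203 per library) falls short of a full library. An exact 0 may stand for few reads. How multi-mapped reads between related genes were assigned could affect S100 levels.

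With R 4.3.3 and limma 3.58.1, log2(TPM + 1) was fitted for the 11197 genes that reached 1.5 in any library, with a mean per condition (27 residual degrees of freedom, intensity trend). Contrasts were two-sided with Benjamini-Hochberg adjustment over all 11197 genes at 0.01. Counts and shares of values over 4-fold used the size of the difference alone. To be named from a list, a gene over 4-fold also had to pass 0.01 with a mean log2 value above 1.5. The authors used edgeR, which needs counts. The model was tested on simulated data. The members and gene lists were chosen with earlier results of these data known. Named genes are the 7 members, listed S100 genes, annexins and targets that passed the filter and, for the lists, changed over 4-fold, and for S100A6, S100A4 and S100P the 5 genes with the highest r over conditions, of which some for S100A4 are not reported here. ANXA2 and ANXA1 at smaller differences, S100A1, S100A5, EZR, CACYBP, POU5F1 and COL3A1 were named after their values were seen. Alternatives were a pseudocount of 0.1, no filter, quantile normalization, median-ratio scaling, leaving out the intensity trend, the replicate number as a block, a fit of only the libraries compared, and leaving out each library.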

Additional observations from a re-analysis of the deposited data

Results flagged for a closer look

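For 2 S100 genes the change from 12 to 48 h differed between SOX17+BLSE and BLSE by a test of the difference itself. S100A4 differed by 3.97 ± 0.89 (SE, adjusted p = 0.00473 in limma), going from 5.27 and 5.84 TPM to 24.3 and 39.0 TPM with SOX17 and from 10.1 and 6.12 TPM to 0 and 6.63 TPM without. This call was lost without 5 single libraries: 3.65 without BLSE 12 h replicate 1, 2.50 without BLSE 48 h replicate 1, 3.90 and 4.03 without either SOX17+BLSE 12 h library and 3.64 without SOX17+BLSE 48 h replicate 2 (adjusted p between 0.0169 and 0.0893). It was also lost without the filter on low values (adjusted p = 0.0117) and without the intensity trend (adjusted p = 0.0101). S100A11 differed by -0.78 ± 0.14 (SE, adjusted p = 0.000503), and without each library in turn it stayed past the threshold, whereas under median-ratio scaling it was -0.82 with an adjusted p of 0.012.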

How the results depend on the processing

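In all, 48 results of the 7 S100 genes passed the threshold, and none of them changed direction. With the replicate number as a block all 48 kept their call, and the counts were 7 in place of 6 for BLSE over cjESCs (S100A14 at 24 h was added), 5 in place of 4 for the day 6 and xrOvary steps, and as before in the other families of comparisons. The labels do not say that replicate numbers pair the libraries. The correlation of replicate differences over 351 pairs of conditions ranged from -0.271 to 0.289, with a median of 0.00947, and was over 0.1 in 41, among them SOX17+BLSE with BLSE at 12 and 24 h (0.207 and 0.272), so the numbers were not treated as pairing in general. For BLSE+IWR1 and BLSE at 24 h it was below -0.1, and with the numbers crossed, chosen after seeing the data, 10 results passed as before. A fit of only the libraries compared lost 37 of the 48. By family it left 1 of 6 for BLSE over cjESCs, 4 of 8 for SOX17+BLSE over BLSE, 3 of 16 for BLSE+IWR1 over pre-treated cells, 3 of 10 for BLSE+IWR1 over BLSE, 0 of 2 for SOX17+BLSE over BLSE+IWR1 at 96 h, 0 of 4 for the day 6 and xrOvary steps and 0 of 2 for the change from 12 to 48 h, each with far fewer residual degrees of freedom. Of 21 results tried for ANXA1, ANXA2 and S100G, 4 passed under every alternative, and for those printed above the calls that were lost were lost in that fit (for example ANXA2 in BLSE+IWR1 over BLSE at 12 h, adjusted p = 0.03). For the change from 12 to 48 h, 1 of 2 remained without the filter, with median-ratio scaling and without the intensity trend. A pseudocount of 0.1, no filter and median-ratio scaling each lost 3 of the 48, no trend 2 and quantile normalization 1. In the contrast of SOX17+BLSE with SOX17+LSE, 1 value was over 4-fold, and 3 were with a pseudocount of 0.1. Without each library in turn, 35 of the 48 kept their call, and the counts ranged from 6 to 8 (BLSE over cjESCs), 7 to 8 (SOX17+BLSE over BLSE), 0 to 0 (pre-treated over PESFA), 12 to 16 (BLSE+IWR1 over pre-treated), 9 to 11 (BLSE+IWR1 over BLSE), 0 to 1 (BMS493), 0 to 2 (SOX17+BLSE over BLSE+IWR1 at 96 h), 3 to 7 (day 6 and xrOvary steps) and 1 to 2 (change from 12 to 48 h), and from 2 to 2 and 1 to 2 for the values over 4-fold of PESFA against DK20FA and of SOX17+BLSE against SOX17+LSE. Among values that did not pass, leaving out 1 library moved S100A4 in BLSE+IWR1 over BLSE at 48 h between -0.51 and 2.43, and S100A6 between -0.69 and 3.25 from day 6 to day 20 and between -3.62 and 0.32 from day 20 to day 40. Median-ratio scaling moved the median of all genes most in SOX17+BLSE over BLSE at 96 h (from 0.243 to 0). Depth was not recorded in the values, so levels near 0 limit S100P, S100A6 and S100A16.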
